A study of Mus musculus with 2 samples.

Results

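Rab genes encode small GTPases that direct the traffic of membrane vesicles inside cells. They were taken here as the rows whose symbol is Rab followed by a number and at most 1 letter and 1 digit, so that Rab-like genes, exchange factors and effectors stayed out. The rule took 52 of the 15113 genes listed in the 2 deposited tables, with 51 members listed in each table and 50 in both. A member without a row in a table was counted as 0 there. The study sorted CD45-negative, Sftpc-positive epithelial cells from digested mouse lungs and sequenced their poly(A) RNA, with 1 library per group. CD45 (gene Ptprc) marks leukocytes, and Sftpc encodes surfactant protein C, the product of alveolar type 2 (AT2) cells. The control library came from wild-type C57BL/6 mice without a tumour. The tumour-bearing library came from C57BL/6 mice that had received 1000000 luciferase-labelled Lewis lung carcinoma (LLC) cells under the skin of the back, a model of spontaneous spread to the lung. The mice were 6 to 8 weeks old. The number of mice behind each library, and how Sftpc was detected in the sort, are, in the sources used here, not stated.

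A Rab protein works as a switch: in its GTP-bound form it sits on the membrane of a given organelle and recruits effectors that move, tether or fuse vesicles, and in its GDP-bound form it is drawn back into the cytosol. Guanine nucleotide exchange factors turn Rab proteins on, GTPase-activating proteins turn them off, and prenyl groups attached to cysteines near the C-terminus hold them on membranes. AT2 cells are professional secretory cells. They store surfactant in lamellar bodies, which are lysosome-related organelles, and release it by regulated exocytosis, and Rab38 and the Rab3 and Rab27 proteins are known for their part in traffic of this kind.

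Because the C-terminal cysteines are the feature every membrane-bound Rab shares, the last 30 coding bases before the stop codon are shown for members on which the results below turn. Sequences and positions are from GENCODE M21 transcripts on GRCm38, 5′ to 3′ on the strand of the gene, with the cysteine codons TGT and TGC in capitals.
Rab27a (chr9:73095424-73095453, plus strand): gaggagaaggagaaggggttgTGTggcTGT
Rab3c (chr13:110061818-110061847, minus strand): cctcctccaccacagcccaacTGTggcTGC
Rab3d (chr9:21910487-21910516, minus strand): ccacccccacagccgagcagcTGCagcTGT
Rab7 (chr6:88000438-88000467, minus strand): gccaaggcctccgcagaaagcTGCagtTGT
Rab9 (chrX:166457711-166457740, minus strand): cgaaagcccaagccaaactcatctTGCTGT
Rab10 (chr12:3249790-3249819, minus strand): ggcgtgacgggctggaagagcaagTGCTGC
Rab11a (chr9:64716852-64716881, minus strand): aagccaaaggtgcagTGCTGTcagaacatc
Rab11b (chr17:33747671-33747700, minus strand): cccaacaagctgcagTGCTGCcagagcctg
Rab20 (chr8:11454000-11454029, minus strand): cccaaacagactagatccgggTGTTGTgcc
Rab38 (chr7:88490728-88490757, plus strand): gttgtcagcTGCtctggcTGTgccaaatcc
The cysteine codons fell into 4 arrangements over the 50 members whose coding ends were read. They were the last 2 codons in 13 members, as in Rab9 and Rab10. In 15 members they were the last and the third from last codon, as in Rab27a, Rab3c, Rab3d and Rab7. A neighbouring pair followed by 1 to 3 further codons ended 14 members, as in Rab11a, Rab11b and Rab20. In 8 members the last cysteine was followed by 3 further codons and preceded by no neighbouring cysteine, as in Rab38, which has the form of a site for a single prenyl group.

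Levels were deposited as RPKM, reads scaled to the length of the gene model and to the library total. The deposited digits allowed the whole reads behind all 52 members to be recovered, from totals of 5335352 (control) and 5387114 reads (tumour-bearing). With 1 library per group there is no replicate error and no test of the condition: every ratio compares these 2 libraries. Each ratio is given with an exact (Clopper-Pearson) 95% interval from its reads. This covers counting error only and not the spread between mice. PCR reads without molecular identifiers are not independent molecules, so the interval may be too narrow even for that error. A gene entered the comparison, and is called tested, when it reached 1 RPKM in at least 1 library. It is said to rise or fall when log2((RPKM + 1)/(RPKM + 1)), tumour-bearing over control, was past 2-fold.

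The gate genes and markers of other cells differed between the libraries. Sftpc was at 94902 RPKM in the control against 54968 RPKM in the library of tumour-bearing mice, called here the library with a tumour, and Ptprc had 12 and 2 reads. The summed RPKM of 10 AT2 markers was 123852 and 87015, but without Sftpc the other 9 summed to 28949 and 32047, and 4 of the 10 were above a log2 ratio of 0. The 10 AT1 (alveolar type 1) markers summed to 1924 and 3169 RPKM. All 10 were above a log2 ratio of 0, with a median of 1.09. Of them 6 rose (60%), against 9.38% of all tested genes. The 8 club and ciliated markers summed to 32456 and 36339 RPKM and, without Scgb1a1, to 2313 and 1223 RPKM, with 6 of 8 below 0 and a median log2 ratio of -0.60. All 9 fibroblast markers rose, from a sum of 27.8 to 481 RPKM, with Lum at 0 in the control. The 9 endothelial markers summed to 26.7 and 119 RPKM, and 7 of them rose. Kdr was at 6.41 and 3.40 RPKM with an interval below 1. Tek was at 3.71 and 3.15 RPKM with an interval that includes 1. Macrophage and monocyte markers summed to 15.0 and 50.5 RPKM, with 5 of 9 at 0 in the control (C1qb, C1qc, Marco, Mrc1 and Adgre1) and 4 of 9 at 0 in the tumour-bearing library. Of the 6 with a row, 3 rose and Chi3l3 fell from 19 to 0 reads. Neuroendocrine markers summed to 5.11 and 11.3 RPKM with Chga at 0 in the control. Of 4 tested, 2 rose and Syp fell from 35 to 4 reads. Markers of other blood cells summed to 3.26 and 5.60 RPKM. Of 4 tested, 2 rose and S100a9 fell from 5 to 0 reads. The part of these cells in the differences between Rab genes was not tested, and in such bulk libraries fewer cells of a type and less RNA per cell cannot be told apart.

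As a family the Rab genes were well expressed, and their summed level differed little between the libraries. The 52 members summed to 1461 RPKM (17193 reads) in the control against 1560 RPKM (18277 reads) with a tumour. The median member was at 18.3 and 15.7 RPKM, against 5.48 and 5.73 RPKM for all genes. Among the members, 30 were at 10 RPKM or more in both libraries and 33 had at least 100 reads in both. The first 10 members by RPKM carried 56.8% of the family's sum in the control and 56.5% with a tumour, with 8 genes shared. Rab7, the Rab of late endosomes and lysosomes, was first in both, followed in the control by Rab2a at 90.7, Rab9 at 83.0, Rab1b at 81.6 and Rab27a at 79.6 RPKM. The reads of Rab7 imply a gene model of 624 bases, its coding length with the stop codon. Its longest GENCODE transcript has 2159 bases. How reads were counted over that model was not stated in the sources used here, so its place in the order is uncertain. Its ratio between libraries does not depend on the length. Other members also had short models, such as Rab22a with 1909 bases against 7155. At the low end Rab17, Rab3b, Rab30, Rab32, Rab37 and Rab44 were below 1 RPKM in both libraries, from 0 to 0.925 RPKM, and were not tested. Rab30 had 0 and 10 reads, which makes it at least 3.30-fold higher with a tumour when 0 is set to a floor of 3 reads per library. Rab44, a large Rab of granulated blood cells, had 9 and 0 reads, at least 3.03-fold lower on the same floor.

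**Figure D1:**
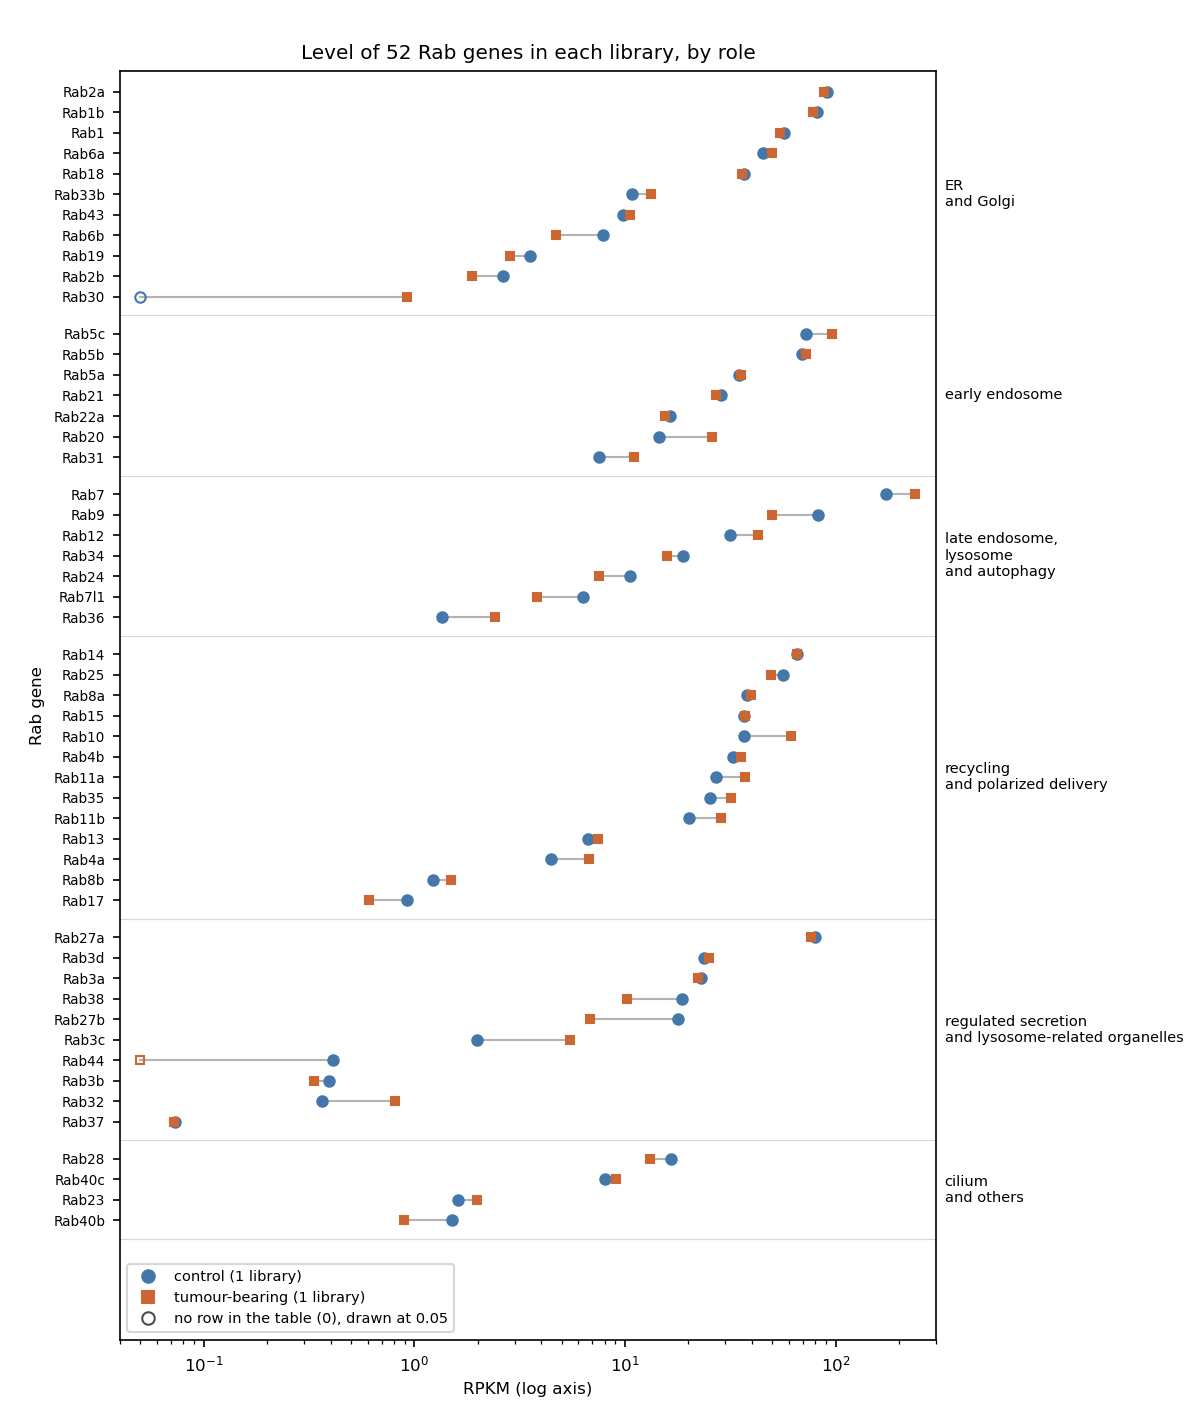
Level of each of the 52 Rab genes in RPKM (log axis), grouped by role, with a circle for the control library and a square for the tumour-bearing library. Most pairs of points lie close together; among genes that reach 10 RPKM the widest gaps are those of Rab27b, Rab38, Rab20, Rab10 and Rab9.

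Most Rab genes were close to equal in the 2 libraries, and 2 of the 46 tested were past 2-fold. Rab3c rose and Rab27b fell, and the other 44 stayed within 2-fold. Over all genes, 9.38% of the 12288 tested genes were higher by this rule, 6.53% were lower and 84.1% lay within, and the Rab genes had 2.17% in each direction. In all, 38 members (82.6%) were within 1.5-fold, against 64.5% of all tested genes. Among genes with a mean of 10 RPKM or more, 1 of 32 Rab genes (3.13%) and 543 of 5584 genes (9.72%) were past 2-fold, with a median size of the log2 ratio of 0.13 and 0.33. The median log2 ratio was 0.05 over the members and 0.06 over all tested genes, with 26 members above 0 and 20 below. Counting intervals lay above 1 for 12 members and below 1 for 5, against 33.1% and 26.4% of the 12229 tested genes with recovered reads. Upper-quartile scaling divides the tumour-bearing values by 1.08, 0.11 on the log2 scale, so a member at a ratio near 1 has no firm direction. Under that and 3 other scalings the 5 genes with intervals below 1 stayed below it, and 9 of the 12 stayed above 1 (Rab3c, Rab20, Rab10, Rab31, Rab11b, Rab11a, Rab7, Rab12 and Rab5c). A further 8 members had intervals below 1 under some scalings: Rab28 and Rab7l1 under all 4, Rab27a and Rab25 under 3, and Rab1, Rab1b, Rab2a and Rab34 under the upper quartile.

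**Figure D2:**
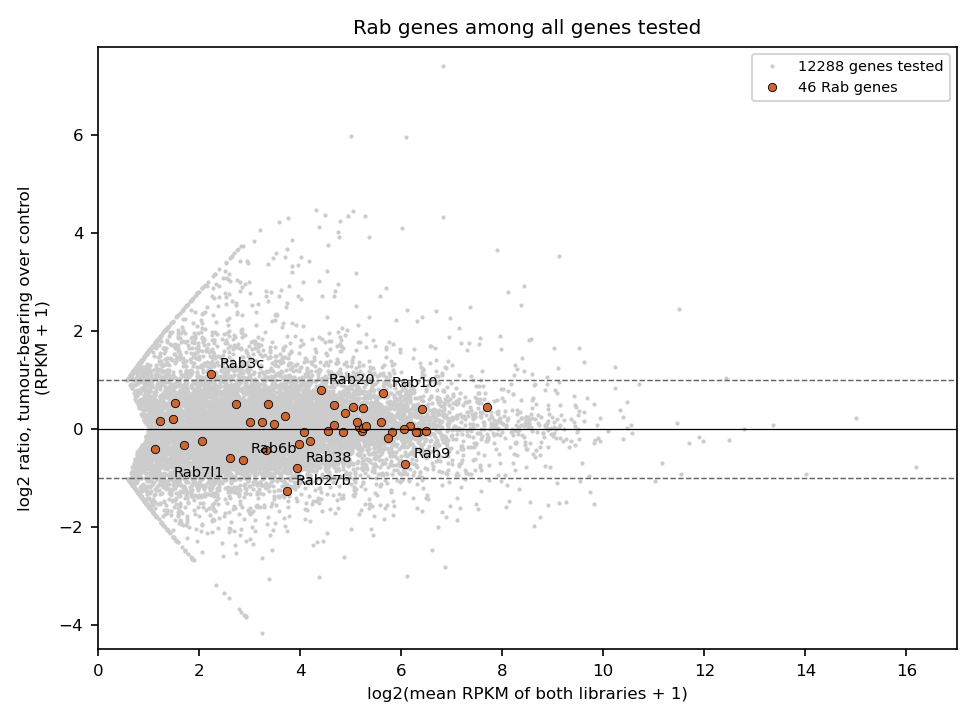
Log2 ratio of the tumour-bearing over the control library (RPKM + 1) against log2 of the mean RPKM + 1, with all 12288 tested genes in grey and 46 Rab genes in orange; dashed lines mark 2-fold. Rab3c lies above the upper line and Rab27b below the lower one; Rab10, Rab20, Rab9 and Rab38 lie between the lines but away from 0.

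**Figure D3:**
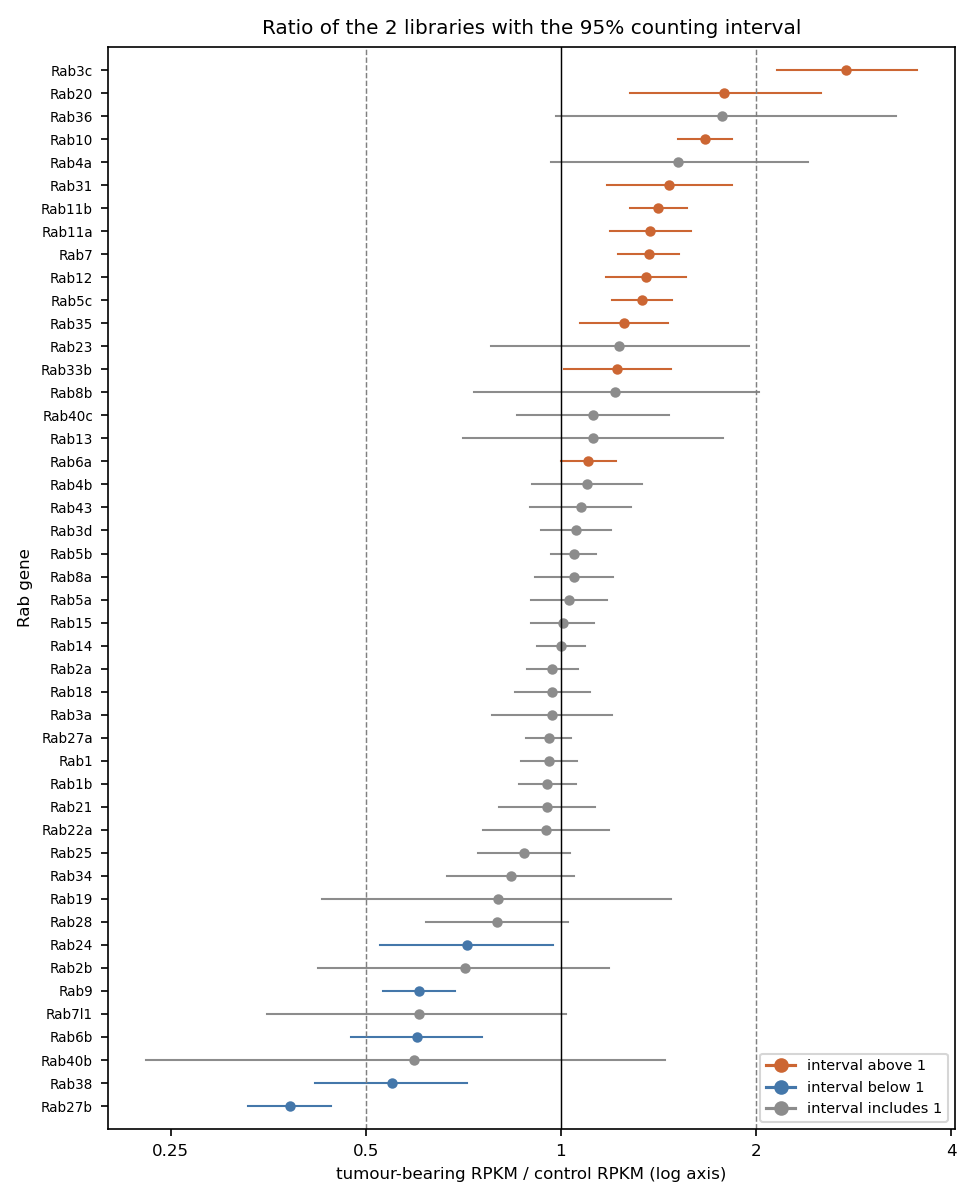
Ratio of the tumour-bearing to the control RPKM (log axis) for 46 tested Rab genes, with bars for the 95% counting interval of 1 library against 1 library; dashed lines mark 2-fold. Intervals of 12 genes lie above 1, those of 5 below 1, and the other 29 include 1.

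The genes of regulated secretion and lysosome-related organelles held both members past 2-fold. Their summed level was 166 RPKM in the control against 147 RPKM with a tumour, with 2 of 6 tested genes above a log2 ratio of 0. Rab27b, which docks secretory granules and exosome-bearing bodies at the plasma membrane, was at 17.9 RPKM (666 reads) in the control against 6.84 RPKM (257 reads) with a tumour. It fell 2.62-fold (interval 2.26 to 3.03). Its paralog Rab27a, which carries melanosomes and lytic granules to the cell surface, was at 79.6 and 76.2 RPKM from 1262 and 1220 reads, a ratio of 0.957 (interval 0.884 to 1.04). Its interval lay below 1 under 3 of the 4 other scalings. Rab27a was thus 4.45 times Rab27b in the control and 11.1 times with a tumour, a 2.51-fold change of the ratio (interval 2.12 to 2.96). Rab27b, expressed far below Rab27a in both libraries, carried 18.3% and 8.23% of the RPKM of the pair.

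Rab3 proteins sit on secretory vesicles and control their release. Rab3c was at 1.98 RPKM (90 reads) in the control against 5.46 RPKM (250 reads) with a tumour. It rose 2.75-fold (interval 2.15 to 3.54). With 5 RPKM added instead of 1, its log2 ratio was 0.58, below the 2-fold rule, as was that of Rab27b at -0.95. Rab3a was at 22.9 and 22.2 RPKM and Rab3d at 23.7 and 25 RPKM, both with intervals that include 1. Rab3d, the form of exocrine granules, was 11.9 times Rab3c in the control and 4.58 times with a tumour. Rab3b was at 0.395 and 0.335 RPKM from 7 and 6 reads.

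Rab38, which with Rab32 directs cargo to lysosome-related organelles such as melanosomes and lamellar bodies, was at 18.7 RPKM (157 reads) in the control against 10.2 RPKM (87 reads) with a tumour. It was 1.82-fold lower (interval 1.39 to 2.40), short of the 2-fold rule. Rab32 had 4 and 9 reads, and Rab37, a Rab of mast cell and other granules, had 1 read in each. The 10 AT2 markers had a median log2 ratio of -0.19 and ranged from -1.07 to 1.03, and the part of the AT2 share of cells in the values of Rab38 and Rab27b was not tested.

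Genes for proteins that bind Rab27 differed in both directions, and were chosen for this description after their values were seen, apart from Rph3al. Rph3al, encoding the granule protein Noc2, fell from 30.2 RPKM (150 reads) to 10.6 RPKM (53 reads), 2.86-fold (interval 2.08 to 3.99). Synaptotagmin-like proteins link Rab27 on vesicles to membranes. Sytl2 was at 16.8 RPKM (434 reads) in the control against 8.59 RPKM (224 reads) with a tumour, 1.96-fold lower (interval 1.66 to 2.31). Sytl1 fell from 3.86 RPKM (40 reads) to 0.478 RPKM (5 reads). Sytl4 had 56 and 28, Sytl5 had 15 and 2, and Sytl3 had 8 and 0 reads, and all 5 Sytl genes had intervals below 1. Sytl3 stayed below 1 RPKM in both libraries and was not among the tested genes. Over all tested genes with recovered reads, 26.4% had intervals below 1. Melanophilin (Mlph), which joins Rab27a to myosin Va, was at 21.3 and 22.7 RPKM, Exph5 at 7.87 and 6.88 RPKM and Unc13d, a vesicle-priming protein, at 12.3 and 14.1 RPKM, each with an interval that includes 1. Myrip, another link to myosin, had 0 and 50 reads.

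**Figure D4:**
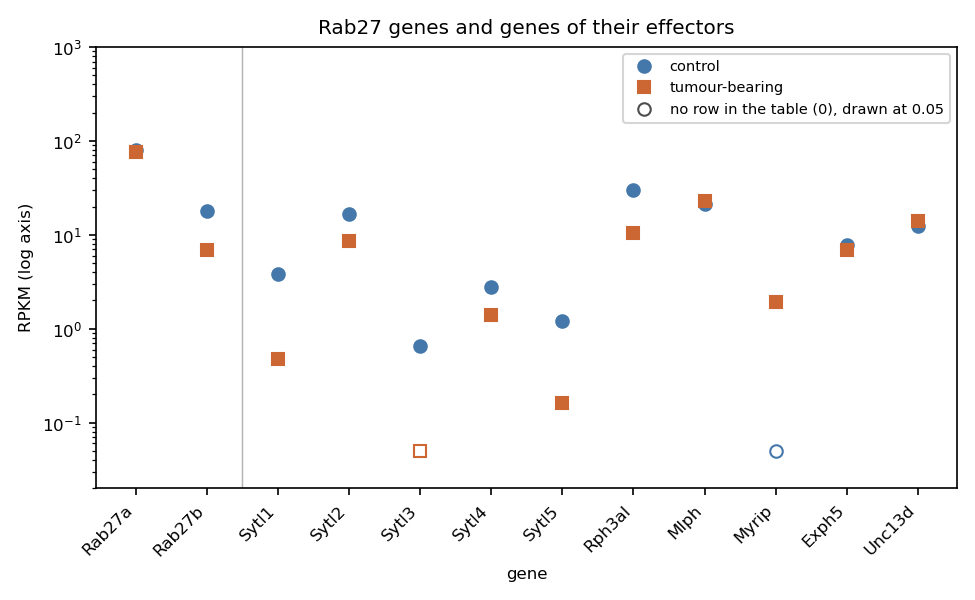
RPKM (log axis) of Rab27a, Rab27b and the genes of 10 proteins known to bind Rab27, with a circle for the control and a square for the tumour-bearing library; open symbols stand for no row. Rab27b, Rph3al and the 5 Sytl genes have the square below the circle, while Rab27a and Mlph nearly overlap and Myrip is open in the control.

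Late endosome, lysosome and autophagy genes went in both directions, and none of the 7 was past 2-fold. Their sum was 326 RPKM in the control against 360 RPKM with a tumour, with 3 ratios above 1 and a median log2 ratio of -0.24. Without Rab7, which has a short gene model, the sum was 152 and 122 RPKM. Rab7, which drives fusion of late endosomes with lysosomes, was at 174 RPKM (580 reads) in the control against 238 RPKM (800 reads) with a tumour, a ratio of 1.37 (interval 1.23 to 1.52). Rab9, which returns mannose 6-phosphate receptors from late endosomes to the trans-Golgi network, was at 83.0 RPKM (641 reads) and 50.1 RPKM (391 reads), 1.66-fold lower (interval 1.46 to 1.88). Rab9 moved from the third to the 11th place of the family. The ratio of Rab7 to Rab9 changed 2.26-fold between the libraries.

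Rab12, which guides transferrin receptor to lysosomes, was at 31.5 and 42.7 RPKM, a ratio of 1.35 (interval 1.17 to 1.56). Rab24, an unusual Rab tied to autophagy, was at 10.6 RPKM (105 reads) and 7.56 RPKM (76 reads), 1.39-fold lower (interval 1.03 to 1.90). Rab34, which positions lysosomes, was at 18.9 and 15.9 RPKM with an interval that includes 1 as deposited. Rab7l1, the older symbol of Rab29, a Golgi and lysosome Rab that recruits the kinase LRRK2, had 41 and 25 reads, and its interval includes 1 as deposited and lay below 1 under the 4 other scalings. Rab36 had 19 and 34 reads, too few to tell its ratio from 1.

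Early endosome genes had 3 of 7 intervals above 1 and none below, against 33.1% and 26.4% of all tested genes with recovered reads. No gene was past 2-fold. Their sum was 243 RPKM in the control against 284 RPKM with a tumour. Rab5 proteins control the entry and fusion of early endosomes. Rab5c was at 72.3 RPKM (612 reads) and 96.4 RPKM (824 reads), a ratio of 1.33 (interval 1.20 to 1.48). Rab5b was at 69.5 and 72.8 RPKM and Rab5a at 34.6 and 35.6 RPKM, both near a ratio of 1. Rab5c and Rab5b were level in the control, with a ratio of 1.04, and Rab5c was 1.32 times Rab5b in the tumour-bearing library.

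Rab20, a Rab of early endosomes and maturing phagosomes, was at 14.5 RPKM (56 reads) in the control against 26.0 RPKM (101 reads) with a tumour, a ratio of 1.79 (interval 1.28 to 2.52). Rab31, which moves receptors between the trans-Golgi network and endosomes, was at 7.50 and 11.0 RPKM, a ratio of 1.47 (interval 1.18 to 1.83). Both had intervals above 1. Rab21, which handles integrins, at 28.5 and 27.1 RPKM, and Rab22a, at 16.3 and 15.5 RPKM, had intervals that include 1. All 9 fibroblast markers and 3 of 6 macrophage markers rose in the same library, while 1 macrophage marker fell, and their part in the values of Rab20 and Rab31 was not tested.

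Recycling and polarized delivery genes carry cargo back to the surface and to the apical or basolateral side of epithelial cells. Of 12 tested, 11 had a ratio above 1 as deposited and 8 or 9 under the 4 other scalings, and none was past 2-fold. Of all tested genes, 53.8% had a ratio above 1 as deposited. The sum was 351 RPKM in the control against 402 RPKM with a tumour. Rab10, which delivers basolateral cargo and glucose transporter vesicles, was at 36.7 RPKM (691 reads) and 61.2 RPKM (1165 reads), a ratio of 1.67 (interval 1.52 to 1.84). Rab11a and Rab11b, the Rabs of the recycling endosome, were at 27.0 and 37.1 RPKM and at 20.2 and 28.6 RPKM. Their ratios of 1.37 (interval 1.19 to 1.59) and 1.41 (interval 1.28 to 1.57) overlap in their intervals, and Rab11b was 0.749 and 0.771 times Rab11a.

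Rab35, of fast recycling and cell division, was at 25.4 and 31.7 RPKM, a ratio of 1.25 (interval 1.07 to 1.46). Rab25, the epithelial relative of Rab11, was the 1 tested gene of this group below 1 as deposited, at 56.1 and 49.2 RPKM with a ratio of 0.878 (interval 0.745 to 1.03, below 1 under 3 of the 4 other scalings). Rab14 at 65.6 and 65.7 RPKM and Rab15 at 36.9 and 37.1 RPKM were almost equal in the 2 libraries. Rab8a, which takes Golgi-derived vesicles to the surface and the cilium, was at 37.8 and 39.6 RPKM, so that Rab10 went from 0.970 to 1.55 times Rab8a. Rab4b, of fast recycling, was at 32.5 and 35.7 RPKM, and Rab4a, Rab8b and Rab13 had 31 to 52 reads in each library and intervals that include 1. Rab17, an epithelial Rab, had 9 and 6 reads.

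Most ER and Golgi genes were close to equal in the 2 libraries, with no gene past 2-fold. Of 10 tested, 7 were below 1, with a median log2 ratio of -0.05, and the sum was 346 RPKM in the control against 340 RPKM with a tumour. Rab1 (older symbol of Rab1a) and Rab1b, which take vesicles from the ER to the Golgi, were at 57.0 and 54.6 RPKM and at 81.6 and 77.8 RPKM. Rab2a, of retrograde traffic at the same step, was at 90.7 and 88.0 RPKM, and Rab18, of the ER and lipid droplets, at 37.0 and 35.9 RPKM. All of these had intervals that include 1 as deposited. Rab6a, the main Golgi Rab, was at 45.5 and 50.1 RPKM, and Rab33b, of the Golgi and autophagosome formation, at 10.9 and 13.3 RPKM. Their intervals began at 1.00 and 1.01, and both included 1 under the 4 other scalings.

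Rab6b, the form known from neurons, was the 1 tested gene of this group with an interval below 1 as deposited. It was at 7.84 RPKM (198 reads) in the control against 4.71 RPKM (120 reads) with a tumour, 1.67-fold lower (interval 1.32 to 2.11). Rab6a went from 5.80 to 10.7 times Rab6b. Rab43 was at 9.81 and 10.5 RPKM, and Rab19 and Rab2b had 21 to 39 reads each and intervals that include 1. The 4 genes with ciliary or other roles, Rab23, Rab28, Rab40b and Rab40c, had intervals that include 1 as deposited. Rab28, the highest of them, was at 16.5 and 13.2 RPKM, and its interval lay below 1 under the 4 other scalings.

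**Figure D5:**
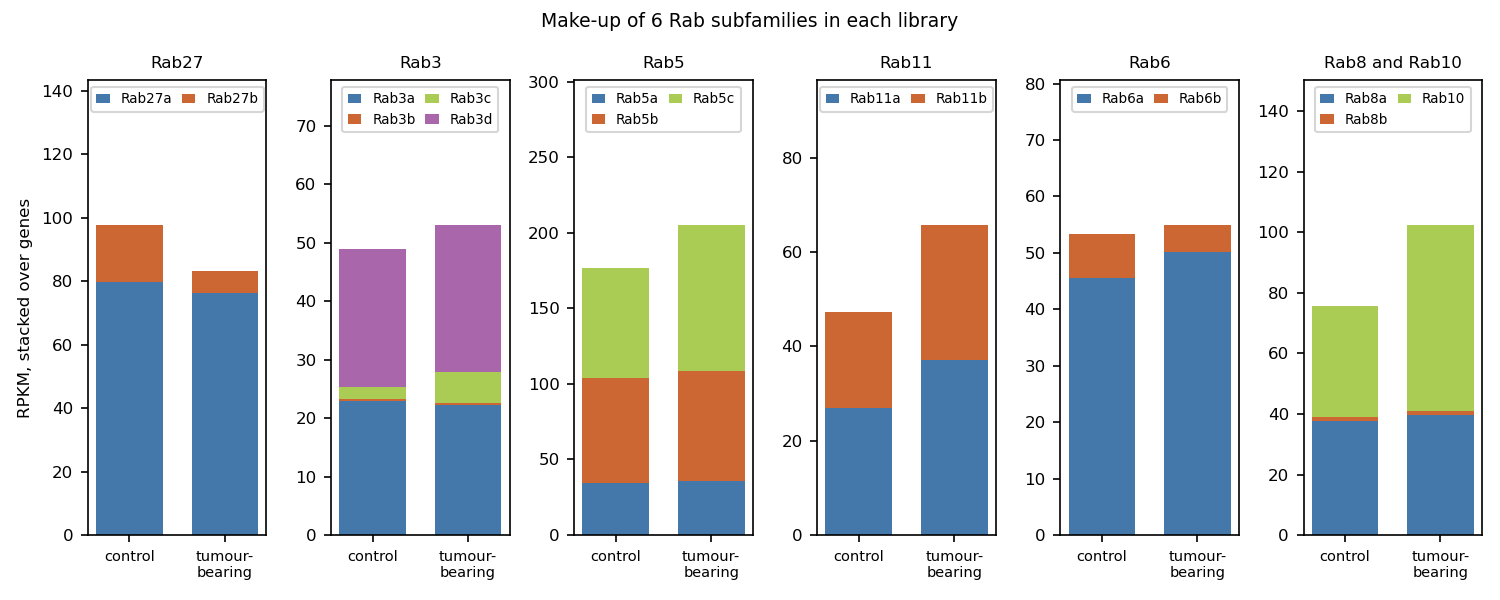
RPKM of the members of 6 Rab subfamilies stacked for each library, from 0 on a linear axis of its own in each panel. The Rab27b and Rab6b segments are smaller in the tumour-bearing library and the Rab3c, Rab5c and Rab10 segments larger, while both Rab11 segments are larger.

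Coding sequences of the 52 members were aligned in 1326 pairs, and the highest identity was that of Rab6a and Rab6b, at 78.4%, with Rab8a and Rab8b at 78.3%, Rab5b and Rab5c at 76.7%, Rab11a and Rab11b at 75.1%, Rab3c and Rab3d at 71.5% and Rab27a and Rab27b at 68.0%. Rab6a and Rab6b, the closest pair, differed in their ratio between libraries by 1.84-fold (interval 1.43 to 2.37), while Rab11a and Rab11b differed by 1.03-fold (interval 0.863 to 1.23). Whether reads that match more than 1 relative were split or dropped in the deposited values was not stated in the sources used here.

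Rab10, Rab11a and Rab11b had the highest ratios among the recycling genes with intervals above 1. The 250 bases before their annotated starts are therefore shown. They are from RefSeq on GRCm38.p6, 5′ to 3′ on the strand of the gene, with matches to the motifs GGGCGG and CCAAT on either strand in capitals.
Rab10 (chr12:3309970-3310219, minus strand): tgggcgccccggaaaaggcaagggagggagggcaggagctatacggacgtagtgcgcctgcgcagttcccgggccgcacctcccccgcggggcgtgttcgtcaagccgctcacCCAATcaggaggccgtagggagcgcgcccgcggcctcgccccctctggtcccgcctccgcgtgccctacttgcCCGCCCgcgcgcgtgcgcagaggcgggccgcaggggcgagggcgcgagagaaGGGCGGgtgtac
Rab11a (chr9:64737757-64738006, minus strand): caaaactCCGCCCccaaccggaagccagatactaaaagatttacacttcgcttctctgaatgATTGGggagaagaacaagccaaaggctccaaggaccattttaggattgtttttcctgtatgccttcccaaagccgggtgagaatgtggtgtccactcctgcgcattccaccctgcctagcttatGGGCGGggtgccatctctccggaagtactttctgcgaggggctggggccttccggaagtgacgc
Rab11b (chr17:33760487-33760736, minus strand): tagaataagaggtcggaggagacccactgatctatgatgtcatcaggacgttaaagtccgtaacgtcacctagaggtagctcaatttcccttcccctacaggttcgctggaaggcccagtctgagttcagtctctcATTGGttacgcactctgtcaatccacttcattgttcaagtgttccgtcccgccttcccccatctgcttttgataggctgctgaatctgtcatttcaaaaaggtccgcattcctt
Rab10 and Rab11a each held 2 GGGCGG matches and Rab11b none, and each held 1 CCAAT match. No match overlapped another in these windows. Over the family, 55 windows of 43 members were found among 32851 windows. GGGCGG, the letters of a GC box, was in 37 of them (67.3%) against 32.7% of all windows. CCAAT was in 22 (40%) against 33.8%, CACGTG, the core of an E-box that lysosomal gene regulators bind, in 5 (9.09%) against 6.02%, and TATAAA in 2 (3.64%) against 12.4%, each searched on both strands. The Rab windows were also richer in G and C, with a median of 60% against 52.4% and 15 against 6 CpG. A match is a description and not a bound site.

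Proteins that prenylate Rabs and shuttle them between membrane and cytosol differed in both directions, with none of 8 past 2-fold and a median log2 ratio of 0.00. Rabac1, which helps place Rabs on membranes, was at 107 RPKM (500 reads) in the control against 177 RPKM (836 reads) with a tumour, a ratio of 1.66 (interval 1.48 to 1.85). Rabif, a Rab-binding guanine nucleotide releasing protein, was at 9.25 and 16.7 RPKM. Rabggtb, the catalytic subunit of Rab prenyltransferase, was at 13.9 RPKM (117 reads) and 6.60 RPKM (56 reads). It was 2.11-fold lower in RPKM (interval 1.52 to 2.96) but short of the rule with 1 RPKM added. Counting intervals lay above 1 for 4 of the 8 and below 1 for 3, against 33.1% and 26.4% of all tested genes with recovered reads.

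Among exchange factors, 2 of 32 tested rose (6.25%) and none fell, against 9.38% and 6.53% of all tested genes, with a median log2 ratio of 0.00. Rin3, an activator of Rab5 and Rab31, was at 4.40 RPKM (91 reads) and 14.9 RPKM (312 reads), a 3.40-fold rise (interval 2.68 to 4.34). Dennd3, an activator of Rab12, rose from 8.52 to 21.8 RPKM, 2.55-fold (interval 2.20 to 2.97). Beside them, Rab31 was at 1.47 times, Rab12 at 1.35 times and Rab5c at 1.33 times the control level. Rab5a and Rab5b, at 1.03 and 1.05 times, had intervals that include 1. A link between these levels was not tested. Mon1a, of the complex that activates Rab7, was at 5.86 and 8.35 RPKM, below the 2-fold rule. Ric1, of the complex that activates Rab6 (listed under its older symbol C030046E11Rik), was at 6.33 and 8.81 RPKM, also below it. Other genes of these complexes, named after their values were seen, differed in direction. Mon1b was at 10.9 and 8.59 RPKM (interval 0.663 to 0.942) and Ccz1 at 35.7 and 42.6 RPKM (interval 1.03 to 1.38 as deposited). Rgp1, listed with Ric1, had 262 reads in each library.

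Of 38 GTPase-activating proteins, 3 rose (7.89%) and none fell, against 9.38% and 6.53% of all tested genes. Their counting intervals lay above 1 for 9 (23.7%) and below 1 for 12 (31.6%), against 33.1% and 26.4% over all tested genes with recovered reads. Their median log2 ratio was -0.03. Tbc1d20, which inactivates Rab1, rose from 17.6 to 44.5 RPKM, 2.52-fold (interval 2.12 to 3.01). Tbc1d8 rose from 9.77 to 22.6 RPKM and Sgsm3 from 13.9 to 29.1 RPKM. Tbck was at 5.30 and 2.30 RPKM, 2.31-fold lower in RPKM (interval 1.59 to 3.40) but short of the rule with 1 RPKM added.

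Of 43 effectors tested, 4 rose (9.30%) and 2 fell (4.65%), near the 9.38% and 6.53% of all tested genes, with a median log2 ratio of 0.09. Mical1, an actin-oxidizing Rab effector, rose from 2.26 to 8.44 RPKM, 3.73-fold (interval 2.65 to 5.35), and its relative Micall1, of recycling endosomes, rose from 11.8 to 28.3 RPKM, 2.40-fold (interval 2.14 to 2.70). Zfyve20, the older symbol of Rbsn, an effector of Rab4 and Rab5, rose from 3.36 to 8.32 RPKM. The Rab11 family interacting proteins, chosen after their values were seen, had 3 of 5 intervals above 1 and 1 below. Over all tested genes with recovered reads, 33.1% of intervals lay above 1 and 26.4% below. Rab11fip4 had 12 and 41 reads (interval 1.74 to 7.07) and Rab11fip5 had 41 and 114 reads (interval 1.91 to 4.04). Rab11fip1 was at 22.1 and 28.8 RPKM, a ratio of 1.30, Rab11fip2 at 6.49 and 6.36 RPKM, and Rab11fip3 at 20.5 and 17.7 RPKM.

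Kinases and phosphatases that act on Rabs numbered 4 tested, none past 2-fold. Lrrk2, which phosphorylates Rab8, Rab10, Rab12 and others and is known for high levels in AT2 cells, was at 52.5 RPKM (2307 reads) in the control against 75.5 RPKM (3348 reads) with a tumour, a ratio of 1.44 (interval 1.36 to 1.52). Tbk1 was at 14.8 and 21.4 RPKM, while Lrrk1 at 20.9 and 20.4 RPKM and the phosphatase Ppm1h at 5.79 and 5.35 RPKM were near equal. Among the LRRK2 substrates named here, Rab10 and Rab12 had ratios of 1.67 and 1.35, and Rab8a had 1.05 with an interval that includes 1. Its other substrates were not gathered for this description. Rab7l1 (Rab29), which recruits LRRK2, had a ratio of 0.604 with an interval that includes 1 as deposited. A link between Lrrk2 and the levels of these Rab genes was not tested.

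None of 20 tested genes of the HPS, BLOC and AP-3 complexes, which sort cargo to lysosome-related organelles and include the activator of Rab32 and Rab38, was past 2-fold. Their median log2 ratio was 0.04. Ap3s1, a small subunit of AP-3, had the largest, from 13.4 to 24.7 RPKM, a ratio of 1.84 (interval 1.45 to 2.35). Hps1, which forms the Rab32 and Rab38 activator with Hps4, was at 5.76 and 4.64 RPKM and Hps4, named after its values were seen, at 3.09 and 3.71 RPKM, both with intervals that include 1. Rab38 itself was 1.82-fold lower.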

How the data were processed

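RNA was measured in 1 control and 1 tumour-bearing library. Poly(A) RNA was fragmented, copied from random primers and amplified by PCR, per the labels' protocols. Trimmomatic and mm10 are named in the submitters' processing notes. Aligner, counter, annotation and strand were not stated in the sources used here. The authors deposited RPKM per gene, per the file headers. RPKM divides by gene length and library total, so a change in abundant genes such as Sftpc shifts all others.

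Values were compared as deposited. Whole reads were recovered from the steps of the RPKM values for 15044 of 15113 genes (99.54%; implied length whole within 0.02 base), with totals of 5335352 and 5387114 reads. On simulated data with these totals, 99.88% of 14901 genes were recovered. The simulation reused the lengths recovered here, so it does not check those lengths. Of the recovered lengths, 13.0% equal that of a GENCODE transcript of the gene, among them those of 8 of the 52 members. The recovered reads summed to 70.3% (control) and 74.5% (tumour-bearing) of the totals. Intervals, computed with scipy 1.17.1, are exact binomial ones conditional on the sum of both libraries' reads. Alignments used Biopython 1.88.

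With 1 library per group no test was made. Log2 ratios had 1 RPKM added, with a filter of 1 RPKM and a 2-fold rule. Every Rab gene could be named, and of each other list up to 4 genes with the largest log2 ratio that reached 5 RPKM in a library. The members and lists were chosen with earlier results of these data known. Protein sequences were planned and are not used here; coding sequences were read instead. Alternatives covered the added RPKM, the scaling, the filter and the fold rule. Some items are not reported here.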

Additional observations from a re-analysis of the deposited data

How the results depend on the processing

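The 2 libraries of this comparison leave no replicate to omit. No paired analysis was possible because each group holds 1 library. With 5 RPKM added, 0 members rose and 0 fell (all genes 370 and 190), Rab3c and Rab27b standing at log2 ratios of 0.58 and -0.95. A 1.5-fold rule gave 3 higher and 5 lower (all genes 2383 and 1978), and a 4-fold rule gave 0 and 0 (all genes 204 and 75). With 0.1 RPKM added, 1247 genes were lower in the whole table, and with recovered reads 1275, in place of 802. The other settings each kept 1 member higher and 1 lower. The median log2 ratio of the members was -0.0539 under upper-quartile scaling, -0.0119 without Sftpc and -0.0048 when centred, opposite in sign to the value as deposited. Chosen after seeing the data, intervals under other scalings lay below 1 for 13 members (upper quartile), 9 (table sum without Sftpc) and 9 (centred on the median of all genes), in place of 5. Of 364 values of single members under other settings, 362 stayed within a limit set from the width of the counting interval. Rab30 and Rab44, at 0 reads in a library, had no finite limit, so their values were counted as within it. The log2 ratio of Rab30 was 0.94 as deposited and 4.38 from recovered reads. A change of sign was seen in 16 values, in 7 members with ratios near 1. Depth limits the rest: Rab20, with 56 and 101 reads, has an interval from 1.28 to 2.52, and members with fewer reads have wider ones.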

Other observations

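Several genes related to Rabs stood outside the naming rule, and are given as values chosen after they were seen. Cracr2a (listed as Efcab4b), a calcium-binding protein with a Rab domain in its long form, fell from 25.2 RPKM (147 reads) to 9.16 RPKM (54 reads), 2.75-fold (interval 2.0 to 3.83). Ift27, the Rab-like subunit of the ciliary transport complex, was at 10.7 RPKM (60 reads) and 5.66 RPKM (32 reads), 1.89-fold lower (interval 1.21 to 3.01), and its partner Ift22 (listed as Rabl5) at 17.7 and 11.4 RPKM. Rabl2, another ciliary Rab-like gene, was at 3.29 and 6.86 RPKM, a ratio of 2.08 (interval 1.32 to 3.36). Rabl3 at 6.67 and 5.60 RPKM, Rabl6 at 19.2 and 18.6 RPKM, Rasef at 11.7 and 10.9 RPKM and Ran, the GTPase of nuclear transport, at 32.4 and 33.9 RPKM had intervals that include 1. Ift27, Ift22 and Rabl2 did not share 1 direction in these 2 libraries.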
